A study of Caenorhabditis elegans with 2 samples.

Results

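The ONECUT genes of Caenorhabditis elegans encode transcription factors that bind DNA through a single cut domain followed by a homeodomain. Members of the wider CUT class act together, and partly in place of one another, to switch on genes that nearly all neurons use, such as those of synaptic vesicle release. Within the family, ceh-48 is a pan-neuronal factor and ceh-38 is expressed in most tissues, while ceh-39 is one of the X-linked signals by which the early embryo counts its X chromosomes. FKH-2, whose binding was mapped here, belongs to the forkhead family of winged-helix transcription factors.

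All 6 ONECUT genes (ceh-38, ceh-48, ceh-49, ceh-39, ceh-21 and ceh-41) were examined, of 19973 protein-coding genes on the nuclear chromosomes. The family was chosen by name, with the peak at ceh-38 already known from these data. Its peaks were defined by position, as every deposited peak whose point lay in a gene body or within 5 kb of it, so the counts and ranks below are descriptions and carry no test. The data came from chromatin immunoprecipitation and sequencing (ChIP-seq) of whole L3 larvae, a mid-larval stage, as 2 biological replicates of 1 group. Males and females of strain OP185 were pooled. The strain carries unc-119(ed3) on chromosome III and the insertion wgIs185, and the protein targeted was FKH-2 fused to eGFP, with the antibody listed as fkh-2. The promoter that drives the tagged protein is not given in the sources used here, and whole larvae mix all tissues. No control library and no second condition were analysed here. Peaks were taken in build ce11 from 4 deposited lists. They were replicate 1 (30000 peaks), replicate 2 (24744), both replicates pooled (30000) and an IDR set of 203. The last was thresholded on the irreproducible discovery rate (IDR), a measure of how well ranks repeat. By score the set ended at pooled rank 203, and 195 of the 203 overlapped a replicate 2 peak. Membership therefore does not show that a given peak ranked alike in both replicates. The pooled list was deposited as peaks and background for IDR input. Its −log10 q-values ran from 0.267 to 3.37, so an entry called a peak here need not be a significant binding site. Read counts are not in the lists, so depth is unknown. Each peak carries the authors' score, which ranks peaks within a list but is not on a scale shared between lists, and a rank of 1 marks the strongest.

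The strongest listed peaks of ceh-38, of the X-linked genes and of ceh-48 are shown because the results turn on them. The first is the part of the ceh-38 peak upstream of its transcript starts (chrII:6951397-6951525). The second is the part of the peak beyond the end of ceh-41 that lies outside annotated UTRs (chrX:1845547-1845782). The third is the whole peak upstream of ceh-48 (chrIV:6809963-6810252). All are the plus strand of the RefSeq sequence of build WBcel235, the same assembly as ce11. Capitals mark a forkhead core or a GAGAGA repeat on either strand.
ceh-38 promoter: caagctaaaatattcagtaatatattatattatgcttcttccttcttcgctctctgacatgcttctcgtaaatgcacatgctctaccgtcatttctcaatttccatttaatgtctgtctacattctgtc
X cluster: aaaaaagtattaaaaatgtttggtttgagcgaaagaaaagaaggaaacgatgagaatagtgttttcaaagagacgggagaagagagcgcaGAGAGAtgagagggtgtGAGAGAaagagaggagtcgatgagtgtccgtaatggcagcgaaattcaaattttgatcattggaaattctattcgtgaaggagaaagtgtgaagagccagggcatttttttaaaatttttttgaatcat
ceh-48 upstream: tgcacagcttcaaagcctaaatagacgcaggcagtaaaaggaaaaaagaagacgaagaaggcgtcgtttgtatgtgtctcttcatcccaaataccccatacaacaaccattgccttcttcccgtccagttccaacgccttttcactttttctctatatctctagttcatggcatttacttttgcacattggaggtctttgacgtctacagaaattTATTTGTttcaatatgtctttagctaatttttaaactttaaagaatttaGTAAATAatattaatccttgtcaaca

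One ONECUT gene, ceh-38, had an IDR peak, and the strongest pooled peaks of the other 5 ranked from 297 to 5283, all outside the IDR set. Under the same rule, 2.66% of all protein-coding genes had an IDR peak, or 532 genes, and with each IDR peak given only to the nearest transcript start within 2000 bp the share was 0.706%, ceh-38 among them. All 6 had a peak in the pooled list, which includes background entries and where 96.1% of protein-coding genes had one. The same was true of the replicate 1 list (96.4% of genes) and of the replicate 2 list (94.5%), so presence in these 3 lists did not set the family apart from other genes, and the ranks are given below. The median over the 6 genes was 5 pooled peaks per gene, against 4 over all protein-coding genes. In replicate 1 it was 3.5 for ONECUT genes and 4 for all genes, and in replicate 2 it was 5 and 3. Per kb of window the pooled medians were 0.382 peaks for ONECUT genes and 0.287 for all protein-coding genes. They were 0.293 for ONECUT genes and 0.284 for all genes in replicate 1, and 0.418 and 0.244 in replicate 2.

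**Figure D1:**
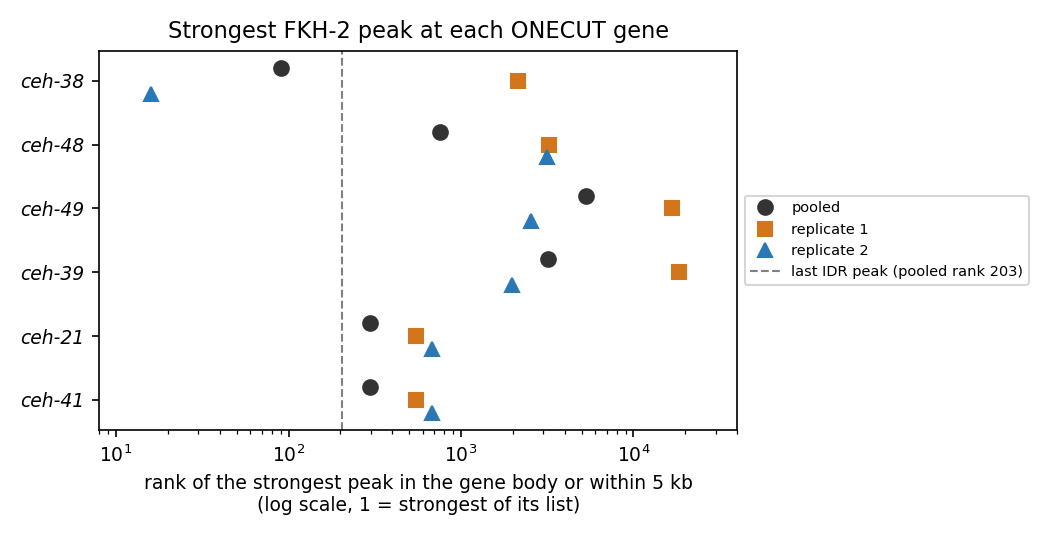
Rank of the strongest peak in the gene body or within 5 kb of each ONECUT gene (log axis, 1 is the strongest of its list) in the pooled list (circles), replicate 1 (squares) and replicate 2 (triangles). The dashed line is pooled rank 203, the last IDR peak. ceh-38 has a pooled rank of 90 and 16 in replicate 2, both at its promoter. Its replicate 1 rank of 2151 is a malt-1 peak 2710 bp upstream, and the promoter ranks 2314 there. ceh-21 and ceh-41 share 1 peak at pooled rank 297.

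The IDR peak of ceh-38 lay on the first transcript starts of the gene. ceh-38 (WBGene00000459) occupies chrII:6951526-6955409 on the plus strand, and its annotation holds 24 transcripts with 11 different starts spread over 544 bp. The peak (chrII:6951397-6951686, 290 bp) had its point 16 bp downstream of the first start, in the 5′ UTR. It covered 6 of the 11 starts, at which 8 of the 24 transcripts begin. The other 16 transcripts begin at 5 starts from 471 to 544 bp downstream of the first, outside the peak. The promoter is also that of a neighbour on the other strand. malt-1 (WBGene00017702, chrII:6947855-6951300), which encodes a paracaspase-type protease, begins 225 bp away and runs in the opposite direction, and the peak point lay at -242 bp from its start, where minus means upstream. Position alone therefore does not assign the binding to ceh-38 rather than malt-1.

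The 2 replicates ranked this region very differently. In replicate 2, a single peak with its point at the same base as the pooled peak scored 17.8 and ranked 16 of 24744. In replicate 1 the region was split into 2 overlapping peaks. One had its point 49 bp upstream of the first start, scored 7.15 and ranked 3789 of 30000. The other had its point 160 bp downstream of the first start, scored 8.22 and ranked 2314. These 2 points were 209 bp apart and lay on either side of the pooled point, 65 bp below and 144 bp above it, and the peaks overlapped by 81 bp. In the pooled list the peak scored 28.02 and ranked 90, above the IDR median of 27.4 (range 22.2 to 85.4). The pooled rank lay nearer that of replicate 2 than that of replicate 1, and none of the 203 strongest replicate 1 peaks was at an ONECUT gene.

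**Figure D2:**
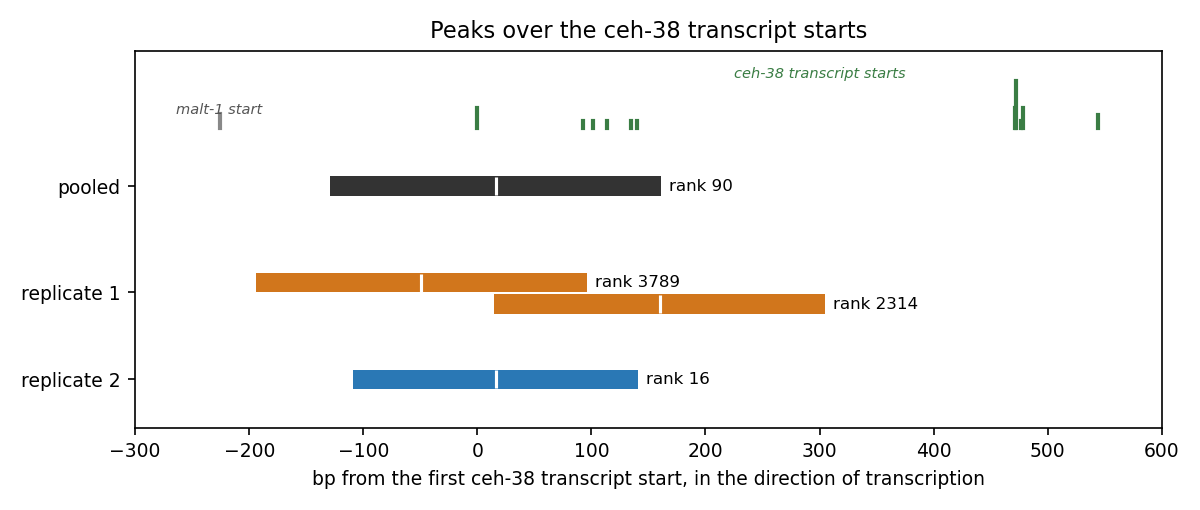
Listed peaks (bars, with the peak point as a white tick) over the ceh-38 promoter, by distance from the first ceh-38 transcript start in bp. Green ticks are the ceh-38 transcript starts, taller where more transcripts begin, and the grey tick is the malt-1 start; replicate 2 has 1 bar (rank 16) and replicate 1 has 2 (ranks 3789 and 2314).

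Few IDR peaks had as weak a replicate 1 rank. Of the 203 IDR peaks, 14 had a replicate 2 rank of 16 or better, the ceh-38 peak included, while 196 had a better replicate 1 rank than 2314 and 6 had a worse one. The median best rank of IDR peaks was 124 in replicate 1 and 294 in replicate 2. Being split was less rare, since 19 IDR peaks overlapped at least 2 replicate 1 peaks, and 4 overlapped at least 2 in replicate 2. The 4 genes most like ceh-38 were those whose assigned IDR peak had the smallest summed difference in log10 rank over the 2 replicates. R151.1 on chromosome III had ranks of 4107 in replicate 1 and 11 in replicate 2, a summed difference of 0.412. cdc-14, a protein phosphatase gene on chromosome II, had ranks of 1822 and 33 in replicates 1 and 2 (0.418). ints-4, a gene of the Integrator complex on chromosome I, had ranks of 1277 and 4 in replicates 1 and 2 (0.860). T28B8.1, also on chromosome I, had ranks of 4618 and 72 (0.953). All 4 ranked far higher in replicate 2 than in replicate 1, as the rule for likeness fixes, and each overlapped 1 replicate 1 peak, whereas ceh-38 overlapped 2.

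**Figure D3:**
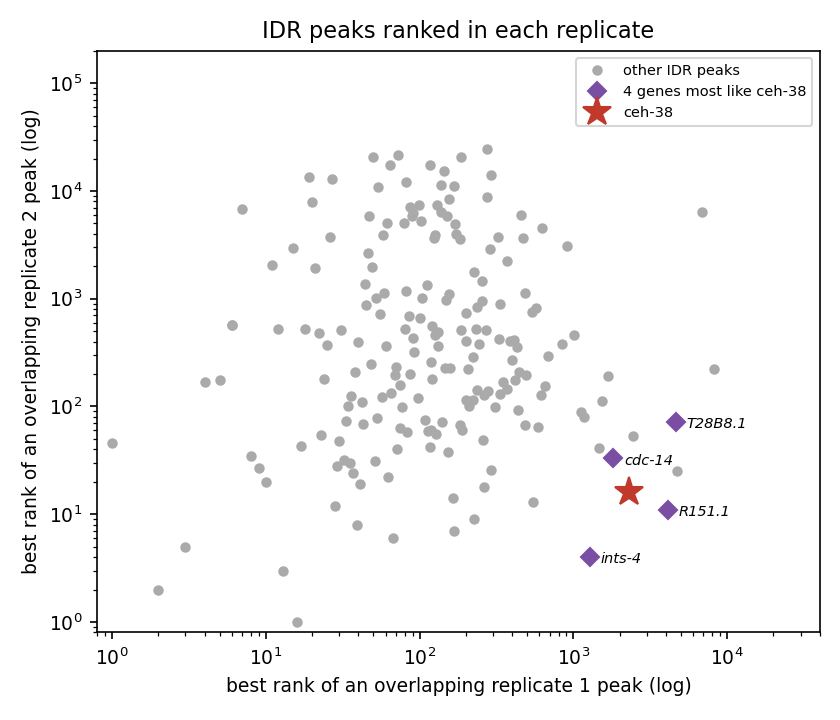
IDR peaks that overlap a peak in both replicates, by the best rank of an overlapping peak in replicate 1 (x, log axis) and in replicate 2 (y, log axis). The star is ceh-38 (2314 and 16), and the diamonds are R151.1, cdc-14, ints-4 and T28B8.1, at the lower right. They have large rank numbers (weak) in replicate 1 and small rank numbers (strong) in replicate 2.

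Of the 5 other pooled peaks around ceh-38, 3 lay in malt-1 and 1 in tra-2. The second in the pooled list (rank 3114, score 10.4) lay in coding sequence of malt-1, 2710 bp upstream of the ceh-38 gene body. It was the strongest ceh-38 window peak of replicate 1, with rank 2151 and a score of 8.37, whereas the overlapping replicate 2 peak ranked 16325.5 of 24744, tied peaks sharing their mean rank. Another malt-1 peak at pooled rank 6922 had a replicate 1 peak of rank 6290 and none in replicate 2. Downstream, ceh-38 overlaps the end of tra-2 (WBGene00006605, chrII:6955384-6965673, minus strand), which encodes a membrane protein of sex determination. A replicate 2 peak in a tra-2 intron, 4382 bp beyond the end of ceh-38, ranked 1205 (score 7.10) and overlapped no peak in the pooled or replicate 1 lists. In the gene body of ceh-38 itself, the only pooled peak besides the promoter one was in the 3′ UTR, at rank 22676 (score 5.08), with a replicate 2 peak of rank 4710 and none in replicate 1.

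**Figure D4:**
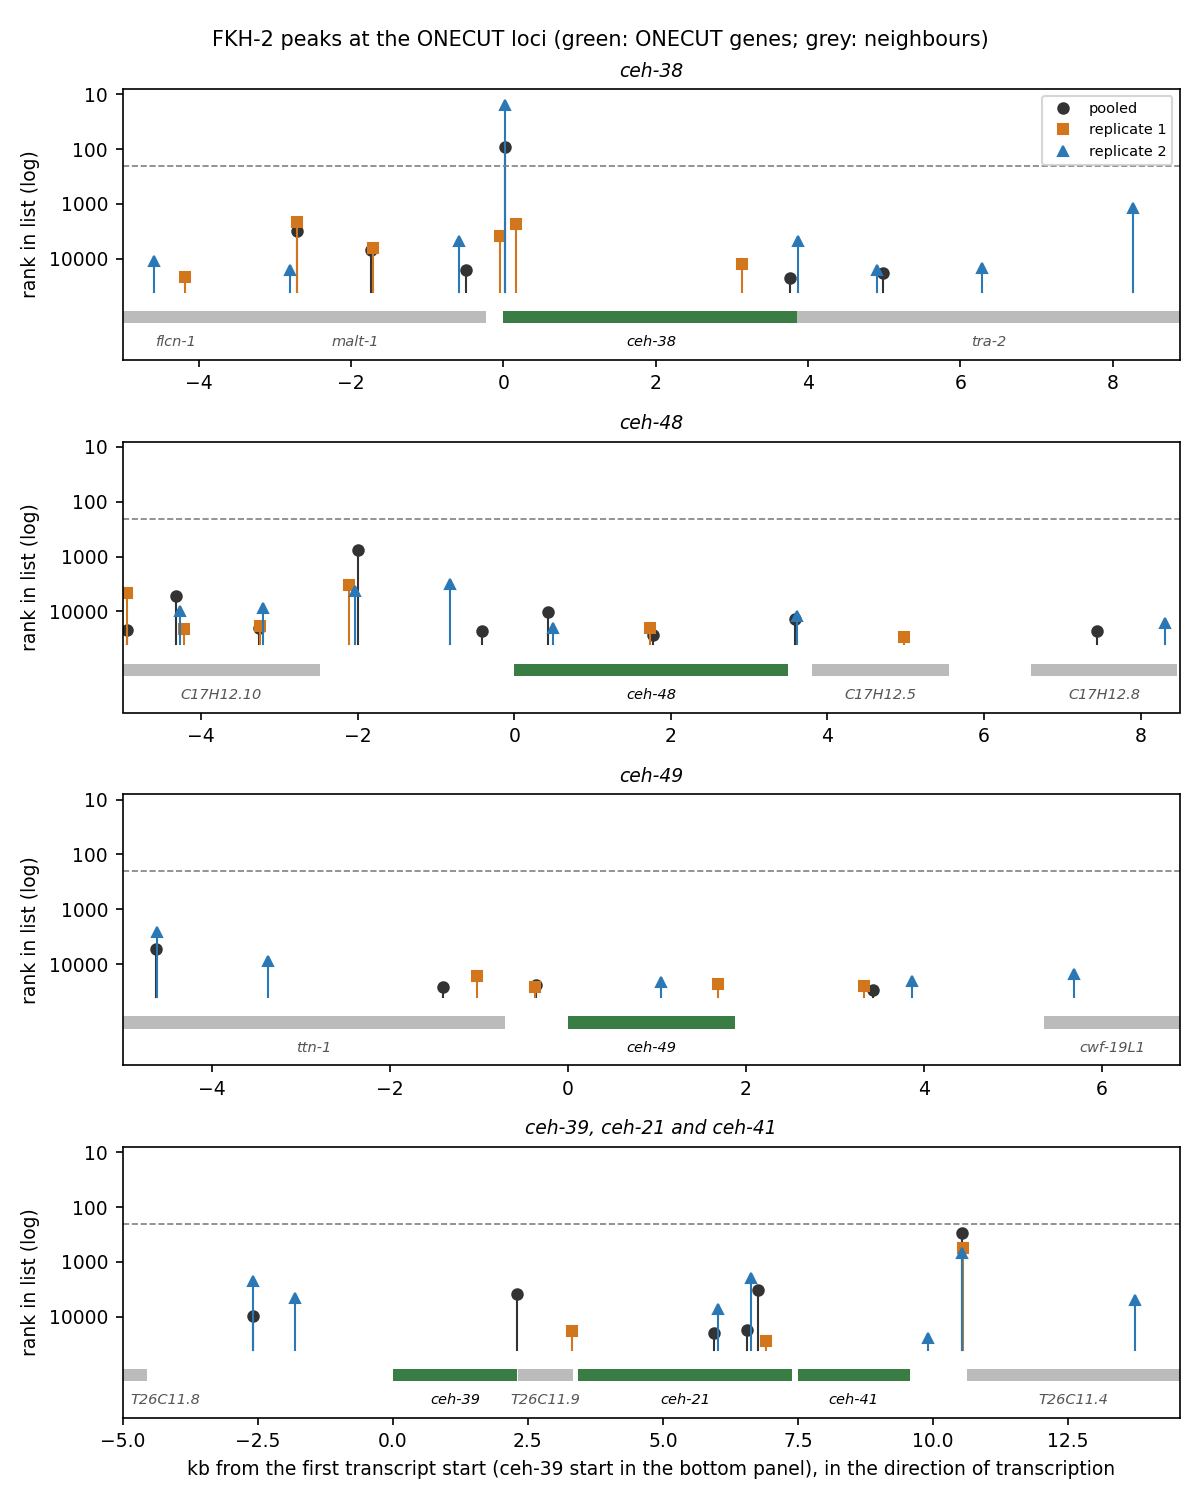
Peaks by distance from the first transcript start (kb, in the direction of transcription) and rank in their own list (log axis, strongest at the top) for the pooled list (circles), replicate 1 (squares) and replicate 2 (triangles), with ONECUT genes in green, neighbours in grey, and pooled rank 203 as a dashed line. The ceh-38 promoter peak is above the line in the pooled list (90) and in replicate 2 (16), and the peak beyond the end of ceh-41 is just below it (pooled 297, replicate 1 547, replicate 2 677).

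ceh-48 had the most pooled peaks of the family, 9, and its strongest lay well upstream. The gene (WBGene00015934, chrIV:6812108-6815607, plus strand) had its best pooled peak at rank 756, with a score of 14.96, in intergenic sequence exactly 2000 bp upstream of its only transcript start. This is the peak printed in full above. The overlapping replicate 1 peak scored 7.49 and ranked 3242, and that of replicate 2 scored 5.17 and ranked 4175. Both replicates thus listed the region, their points 2110 and 2032 bp upstream of the start in replicates 1 and 2. In the pooled list 9.13% of protein-coding genes had a stronger best peak than ceh-48, and 1.79% had more peaks per kb of window. The single replicates placed it lower on both measures. In replicate 1, 33.02% of genes had a stronger best peak and 18.2% had more peaks per kb, and in replicate 2 these shares were 32.82% and 3.90%. The best replicate 2 peak, from which the 32.82% was taken, was another one. It lay 821 bp upstream of the start (score 5.62, rank 3164), and no other list held it. Inside the gene, an intronic pooled peak 431 bp downstream of the start ranked 10049 and a coding one ranked 26472. Of its 9 pooled peaks, 3 overlapped a peak of each replicate, and 3 of the 9 lay in introns of C17H12.10, the gene upstream.

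ceh-49 had the lowest best pooled rank of the family. The gene (WBGene00017538, chrV:6118333-6120206, minus strand) had 4 pooled peaks, of which none lay in the gene body and none overlapped a peak of both replicates. The nearest to the start, 358 bp upstream, ranked 24504 (score 4.85), with a replicate 1 peak of rank 26175 and none in replicate 2. The strongest, at rank 5283 (score 8.95), lay 4620 bp upstream in coding sequence of ttn-1, the giant muscle protein titin. Replicate 2 ranked that region 2559 (score 5.97), and replicate 1 listed no peak there. Inside the gene each replicate listed 1 peak in coding sequence that no other list held, 1690 bp downstream of the start in replicate 1 (score 3.20) and 1052 bp downstream in replicate 2 (score 2.30). The best pooled rank lay near 5449, the median best rank of all protein-coding genes with a pooled peak.

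ceh-39, ceh-21 and ceh-41 lie next to each other on chromosome X and share most of their peaks. In the order of transcription, on the minus strand, they are ceh-39 (WBGene00000460, chrX:1853874-1856172), ceh-21 (WBGene00000444, chrX:1848779-1852736) and ceh-41 (WBGene00000462, chrX:1846608-1848675). The 3 span 9.57 kb. ceh-41 begins 103 bp beyond the end of ceh-21, while T26C11.9 fills most of the 1137 bp between ceh-21 and ceh-39. Their windows together held 6 distinct pooled peaks, 3 in replicate 1 and 7 in replicate 2, which are counted once here.

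The strongest FKH-2 region of the X cluster lay behind it, in the promoter of the next gene. The peak at chrX:1845493-1845782 had a pooled score of 19.7 and ranked 297, below the limit of the IDR set, whose last member ranked 203 with a score of 22.24 (22.15 for the first peak outside). Its point was 970 bp beyond the end of ceh-41 and at -92 bp from the start of T26C11.4 (WBGene00020830, chrX:1840554-1845546). Replicate 1 scored it 11.9 and ranked it 547, and replicate 2 scored it 8.05 and ranked it 677. Of the strongest pooled peaks of the 6 genes, it was the one whose ranks in the 2 replicates were nearest. The points lay at -65 bp from the T26C11.4 start in replicate 1 and at -94 bp in replicate 2. No ONECUT transcript start lay within 2000 bp of the point, and T26C11.4 was the only protein-coding gene with a start in that reach.

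Of the 5 other pooled peaks of the cluster, 3 lay in 3′ UTRs and none within 500 bp of an ONECUT start. The second pooled peak (rank 3199, score 10.3) lay in the 3′ UTR of ceh-21, 737 bp upstream of the start of ceh-41. Replicate 2 ranked an overlapping peak 1983 (score 6.33), whereas the overlapping one of replicate 1 ranked 27350 (score 2.83). A pooled peak at rank 3861 (score 9.80) lay at the end of ceh-39 in its 3′ UTR, at -28 bp from the start of T26C11.9, and overlapped no peak in either replicate. Near the start of ceh-39, the closest listed peak was one of replicate 2, 1808 bp upstream at rank 4504 (score 5.06). A pooled peak 2587 bp upstream of ceh-39 ranked 9572 (score 7.39) and 2227 in replicate 2, with none in replicate 1, and lay within 200 bp of a tRNA gene. Near the start of ceh-21, replicate 1 listed a peak 118 bp upstream at rank 18412 (score 3.76), in the 3′ UTR of T26C11.9, which no other list held.

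Counts at the starts of the genes were as follows. A pooled peak point within 500 bp of a transcript start was present at 3 of 6 genes (ceh-38, ceh-48 and ceh-49), against 36.0% of all protein-coding genes. Replicate 1 had one at 3 (ceh-38, ceh-49 and ceh-21), against 35.8% of genes, and replicate 2 at 2 (ceh-38 and ceh-48), against 29.8%. ceh-38 was the single gene with such a peak in all 3 lists. Of the 25 distinct pooled peaks at the family, 7 overlapped a peak of each replicate, against 17.5% of all pooled peaks. Replicate 1 shared 12 of the 25, replicate 2 shared 16, and 4 overlapped a peak in neither. Among the 500 strongest pooled peaks, 3 of the 6 genes had one in reach (ceh-38, and ceh-21 and ceh-41 through the shared T26C11.4 peak), against 6.20% of all protein-coding genes.

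Forkhead cores and GAGA repeats each lay near the point of 2 of the 25 pooled peaks. The forkhead core was searched on both strands as ACAAACA or ACAAATA or ATAAACA or ATAAATA or GCAAACA or GCAAATA or GTAAACA or GTAAATA, of which ATAAACA and GTAAACA form the stricter core. GAGAGA was searched on both strands too, and shares no word with the forkhead core. Within 50 bp of the point, 2 of the 25 pooled peaks had a forkhead core, against 29.6% of IDR peaks and 16.9% of all pooled peaks. The stricter core was at 1 of the 25, against 15.3% of IDR peaks and 4.15% of pooled peaks. A GAGAGA repeat was at 2 of the 25, against 38.4% and 8.25% in the IDR and pooled lists. In the whole peak, 8 of 25 had a forkhead core and 6 had GAGAGA, against 41.07% and 20.2% of pooled peaks.

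The ceh-38 peak had no motif within 50 bp of its point and 1 forkhead core in its whole length, centred 95 bp downstream of the point, inside the transcribed part. The peak beyond ceh-41 had 2 GAGAGA repeats, centred 1 and 18 bp from its point, and no forkhead core. The strong ceh-48 peak had 2 forkhead cores, 73 and 122 bp from its point, both in capitals in the printed sequence. The 2 cores that did lie close to a point belonged to weak peaks, at pooled rank 22597 upstream of ceh-48 and 29907 downstream of ceh-49, over the pseudogene WBGene00017533. The sites below, 27 bases each in the direction of the core (capitals), show how the cores differ between genes (ceh-38 chrII:6951624-6951650, ceh-48 chrIV:6811689-6811715 and ceh-49 chrV:6116730-6116756, all on the plus strand).
ceh-38 site: ctagagacggACAAACAacgcgcggcc
ceh-48 site: atttcaattgATAAATAaactaaaact
ceh-49 site: ttttagaagaATAAACActggttaatt
Only the ceh-49 site held the stricter core, and it lay under the peak with the lowest rank of the 3. A match describes letters and does not show binding, and the GC content of the ceh-38 peak was 42.8%, against a median of 43.4% for IDR peaks and 37.2% for pooled peaks.

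Other CUT-class genes, and pan-neuronal genes described as targets or markers of CUT factors, were placed by the same rule. In the CUT class outside the family, dve-1 (WBGene00022861, chrX:427035-433812), a SATB-related homeobox gene, had no IDR peak, and its best pooled peak ranked 2283. ceh-44, the CUX homologue and a pan-neuronal partner of ceh-48, has no entry under that name among the gene models used, so its place was taken from the RefSeq table of the same build (chrIII:2530620-2543068). An IDR peak at rank 178 (score 23.08) lay at -1786 bp from its lower end and at -145 bp from the start of rbc-2. The first distance is in coordinates and takes no account of the strand of ceh-44, so its sign does not mean upstream. That peak was high in replicate 1 (rank 72) and low in replicate 2 (rank 21449.5), the reverse of ceh-38. Of 16 pan-neuronal genes, which include reported targets of CUT factors, 0 had an IDR peak, where 2.66% of all protein-coding genes did, so a count of 0 in a list of this size does not set them apart. In the pooled list and in replicate 2 the best ranked of them was the synaptobrevin gene snb-1 (WBGene00004897, chrV:6655562-6656501), at 675 in the pooled list and 495 in replicate 2. In replicate 1 snb-1 ranked 1416, and the best ranked was maco-1, which encodes a neuronal membrane protein, at 507. The median best pooled rank was 4437 over the 15 with a pooled peak, and ehs-1, a clathrin-coat accessory gene, had none.

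Of 4 sex-determination genes linked to ceh-39, only xol-1, the master switch that ceh-39 helps to repress in embryos with 2 X chromosomes, had an IDR peak. It lay at chrX:8036413-8036702 (rank 153, score 24.2), at -4755 bp from the xol-1 start and so just inside the window, and ranked 546 in replicate 1 and 13 in replicate 2. fox-1, an RNA-binding X signal, had a best pooled rank of 526, sex-1, a nuclear receptor X signal, 4201, and sdc-2, a dosage compensation gene, 8257. Among the 57 other genes named ceh with a number in the gene models used, ceh-5 alone had an IDR peak in its window, at rank 175. Of all protein-coding genes, 2.66% had one. The 57 leave out ceh-44, which has no entry under that name there and whose IDR peak is given above. The ceh-5 peak lay at -4888 bp from the ceh-5 start and at -435 bp from that of eat-16. Among the 500 strongest pooled peaks, 3 of the 6 ONECUT genes and 3 of the 57 had one in reach, against 6.20% of all protein-coding genes, so both counts for the 57 were near those shares. The median best pooled rank was 526.5 for the 6 ONECUT genes, in which 2 genes share 1 peak, and 5310.5 for the 56 of those 57 with a pooled peak. These medians hold for the pooled list at 5 kb, in a family chosen with the ceh-38 peak known. Within 2 kb the best pooled rank became 3199 for ceh-21, 3861 for ceh-39 and 24504 for ceh-49, and stayed the same for ceh-38, ceh-48 and ceh-41. In replicate 1 the best ranks of the 6 genes ran from 547 to 18412, and in replicate 2 from 16 to 3164.

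The pooled peaks nearest the 5 kb bound were the following. For ceh-38 the last pooled peak inside lay 2710 bp from the gene (rank 3114) and the first outside 5704 bp away (rank 20424). For ceh-48 the last inside lay 4944 bp away (rank 22179) and the first outside 5180 bp away (rank 7149). For ceh-49 these were 4620 bp (rank 5283) and 6733 bp (rank 3526), and for ceh-39 4462 bp (rank 3199) and 6547 bp (rank 6476). For ceh-21 they were 3141 bp (rank 297) and 6023 bp (rank 9572), and for ceh-41 1557 bp (rank 20195) and 5202 bp (rank 3861). The T26C11.4 promoter peak falls outside the window of ceh-39.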

How the data were processed

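ChIP-seq of eGFP-tagged FKH-2 in whole L3 larvae (2 biological replicates) was analysed from the peak lists deposited in build ce11. Per the deposited text files, replicate and pooled lists were called from alignments with a control file as input for IDR, and the IDR set was derived from these 3 lists. The aligner, the caller, their versions and the IDR limit are not given in the sources used here. The authors deposited for each peak a score, whose scale is not stated, and a −log10 of the q-value, which was not used for ranking. The ce10 lists were not used here. Peaks were ranked by score within a list, ties sharing their mean rank. Peak points were placed on Ensembl release 115 gene models, and peaks of 2 lists were matched by an overlap of at least 1 bp. Sequence came from the RefSeq genome of the same assembly. Counting was done in Python 3.11.15 with numpy 2.4.6 and pandas 2.3.3, after checking window and overlap counts on simulated peaks at known distances. Members and gene lists were chosen with earlier results of these data known. Genes named were the 6 members, genes with a start within 2000 bp of their IDR or strongest pooled peak, 3 gene lists, and the 4 genes most like ceh-38; other neighbours, the counts within 500 bp of a start, rbc-2 and eat-16 were added after values were seen. No test was run, since the rule used every list. The labels name 2 biosamples, without saying whether cultures were separate.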

Additional observations from a re-analysis of the deposited data

How the results depend on the processing

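The count of 1 ONECUT gene with an IDR peak held with windows of 1, 2 and 10 kb, with whole-peak overlap, with the upper part of the IDR set and with nearest-start assignment, and became 3 with the 500 strongest pooled peaks. With the 203 strongest peaks of 1 replicate in place of the IDR set, it ranged from 0 (without replicate 2) to 1 (without replicate 1). That swap does not rerun the pooled call or IDR, so what each replicate added to the ceh-38 call was not tested. All 6 genes kept a pooled peak under every window tried, and each had a peak in the list of each replicate. At 5 kb the pooled list gave 96.1% of all protein-coding genes a peak, and the shares at the other windows are not given here. The 25 distinct pooled peaks became 13 within 1 kb, 40 within 10 kb and 12 among peaks above the median score. In their own lists, replicate 1 had 19 distinct peaks in the 5 kb windows and replicate 2 had 27, which is not a recount of the pooled peaks. Best ranks in the window, taken from the list of each single replicate, can belong to different regions. They ranged from 16 to 2151 for ceh-38, 3164 to 3242 for ceh-48, 2559 to 16699 for ceh-49, 1983 to 18412 for ceh-39, and 547 to 677 for ceh-21 and ceh-41. For ceh-48, 3164 was the replicate 2 peak 821 bp upstream, while the region of its strongest pooled peak ranked 4175 there. For ceh-38, 2151 was a malt-1 peak, and the promoter ranked 2314 in replicate 1. Within 2 kb the best pooled rank became 24504 for ceh-49 and 3199 for ceh-21. Forkhead cores were at 6 peaks within 100 bp and 8 in the whole peak, against 2 within 50 bp, and GAGAGA at 6 in both, against 2. The causes were not tested beyond what each setting changes by construction, such as a wider window. No paired analysis was possible because there is 1 group. Depth is unknown, so a region missing from a list may lie below what that library could show.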
